A study of Mus musculus with 12 samples.

Results

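The mitochondrial ribosomal protein genes were followed in subcutaneous mouse tumors. They were taken as all genes whose symbol is Mrpl or Mrps followed by a number, with 1 probeset per gene, the one with the highest mean. They numbered 77 of 19938 genes with a probeset of their own on the array, 48 named Mrpl and 29 named Mrps. Mrpl53 shared its probeset with Ccdc142 and was left out. All 77 passed the filter on low signal, so none had to differ between groups to be tested.

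The tumors were grafts of J2A cells, a line of aortic myofibroblasts from C57BL/6 mice lacking p16, p19 and Vnn1, transformed with oncogenic RasV12. VR cells also carried Vnn1, the pantetheinase that splits pantetheine into pantothenate and cysteamine. VdR cells carried a Vnn1 form without catalytic activity, and R cells carried RasV12 alone. All 3 vectors therefore act on the same Vnn1-deficient background, and each group had 4 tumors in nude mice, numbered 1, 2, 4 and 5. Each group came from 1 transduced line as far as is stated, so the tumors replicate the graft and not the transduction, and p-values measure the spread between such grafts. The labels give a harvest between 2 and 3 weeks by growth rate whereas the methods give 1 day for all, and the labels speak of sorted cells whereas the study describes total tumor extracts. Values are log2 expression from Affymetrix arrays, so a difference of 1 is a doubling.

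Mitochondrial ribosomes translate the few proteins that mitochondrial DNA encodes, all of them membrane subunits of the respiratory chain and of ATP synthase. Their RNA is mitochondrial, but every one of their proteins is encoded in the nucleus, made in the cytosol and imported. Proteins of the large subunit are mostly named Mrpl and those of the small subunit Mrps, with Mrps30 and Mrps18a as members of the large subunit despite their names. Some have a counterpart in bacterial ribosomes and others were gained by mitochondria. NRF1, the ETS factor GABP and YY1 are known regulators of nuclear genes for mitochondrial proteins.

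Promoter windows were available from RefSeq (GRCm38.p6) for 68 members, in 74 windows of 300 bases that start 250 bases before the annotated gene start. The 4 below belong to members that differed between VR and R tumors, Mrpl3 and Mrpl42 higher and Mrpl32 and Mrps27 lower, and are shown because between them they hold each motif searched. Capitals mark a match to the ETS motif CCGGAAG, the NRF1 motif GCGCATGCG or the YY1 motif AAGATGGCG on either strand.
Mrpl3 (chr9:105053018-105053317, + strand): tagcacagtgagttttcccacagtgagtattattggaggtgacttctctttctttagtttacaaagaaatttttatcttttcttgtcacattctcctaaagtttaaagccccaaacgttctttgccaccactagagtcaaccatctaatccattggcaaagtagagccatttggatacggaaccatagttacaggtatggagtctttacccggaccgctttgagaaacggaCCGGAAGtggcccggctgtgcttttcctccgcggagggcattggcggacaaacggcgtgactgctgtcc
Mrpl42 (chr10:95501900-95502199, - strand): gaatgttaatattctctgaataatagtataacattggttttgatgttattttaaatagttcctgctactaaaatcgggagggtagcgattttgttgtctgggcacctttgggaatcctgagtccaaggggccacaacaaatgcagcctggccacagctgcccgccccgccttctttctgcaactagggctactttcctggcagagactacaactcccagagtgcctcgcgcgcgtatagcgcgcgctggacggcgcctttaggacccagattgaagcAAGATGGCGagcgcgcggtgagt
Mrpl32 (chr13:14612988-14613287, - strand): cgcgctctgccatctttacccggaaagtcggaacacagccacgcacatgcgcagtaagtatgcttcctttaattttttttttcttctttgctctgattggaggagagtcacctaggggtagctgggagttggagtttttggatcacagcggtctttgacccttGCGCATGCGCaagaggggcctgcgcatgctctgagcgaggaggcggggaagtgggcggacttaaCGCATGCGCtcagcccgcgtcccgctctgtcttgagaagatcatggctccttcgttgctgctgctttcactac
Mrps27 (chr13:99344536-99344835, + strand): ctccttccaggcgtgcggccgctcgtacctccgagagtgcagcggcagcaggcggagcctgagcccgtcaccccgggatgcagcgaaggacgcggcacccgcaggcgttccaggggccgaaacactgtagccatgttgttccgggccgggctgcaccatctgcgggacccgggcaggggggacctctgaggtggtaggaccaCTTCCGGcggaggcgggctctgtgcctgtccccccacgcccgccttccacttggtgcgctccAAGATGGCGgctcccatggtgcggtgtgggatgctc
The Mrpl3 window held an ETS match at positions -19 to -13, counted from the start. The Mrpl42 window held a YY1 match at 27 to 35, and the Mrps27 window held a YY1 match at 14 to 22 with an ETS match on the opposite strand at -48 to -42. In the Mrpl32 window the NRF1 motif, which is nearly its own reverse complement, matched on both strands between -87 and -78 and once more at -23 to -15.

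At least 1 of the motifs was found in 35 of the 74 member windows (47.3%), against 11.4% of all 32851 windows in the table. The ETS motif was in 25 member windows (33.8%, against 8.86% of all windows), the NRF1 motif in 7 (9.46%, against 1.75%) and the YY1 motif in 8 (10.8%, against 1.4%). Matches occurred in members that were higher, lower or not called in VR against R tumors: in 4 of 6 windows of higher members (Mrpl3, Mrpl33, Mrpl42 and Mrps23), 3 of 5 of lower members (Mrpl32, Mrpl43 and Mrps27) and 28 of 63 of the rest. A match describes the letters of the window and not binding.

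Vnn1 averaged 10.88 in VR tumors and 11.56 in VdR tumors, against 5.70 in R tumors, matching the labels, and its VR mean was below its VdR mean by limma (log2 difference -0.69, SE 0.144, adjusted p = 0.0292). The mean of 12 myofibroblast markers was between 11.48 and 12.05 in all 12 tumors, and 6 of them rose in VR against R tumors. Of 17 macrophage markers, 14 were higher in VR and 16 in VdR than in R tumors (82.4% and 94.1%, where 13.6% and 6.58% of all genes were). Their mean was 9.97 to 10.23 in VR, 10.09 to 10.34 in VdR and 9.001 to 9.34 in R tumors, so R tumors did not overlap the others. Of 8 endothelial markers, 3 were higher in VR against R and 2 in VR against VdR tumors, and their mean was 9.42 to 9.78 in VR, 8.90 to 9.26 in VdR and 8.79 to 9.29 in R tumors. Of all genes 13.6% were higher in VR against R and 1.77% in VR against VdR tumors. Skeletal muscle markers, with a mean of 6.61 to 6.73 elsewhere, stood at 8.32 in VR 2, 8.63 in VdR 2, 9.13 in VdR 4, 9.01 in R 2 and 8.30 in R 5. VdR 4 stood apart in the members themselves. It was the lowest VdR tumor for 60 of 77 members, with a member mean of 9.09 against 9.29 to 9.30 in the other VdR tumors. VdR 4 also had the highest macrophage mean (10.34) and muscle mean of all tumors, and the lowest proliferation marker mean of its group (10.43). R 5 was the highest R tumor for 47 members, with a member mean of 9.30 and a proliferation marker mean of 10.93, the highest of the 12. Fits with the macrophage mean as a covariate, and without the tumors with raised muscle markers, are given below. Beyond these, what part these tumors' other cells had in the member values was not tested. In whole tumors fewer cells of a type and less RNA per cell cannot be told apart.

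**Figure D1:**
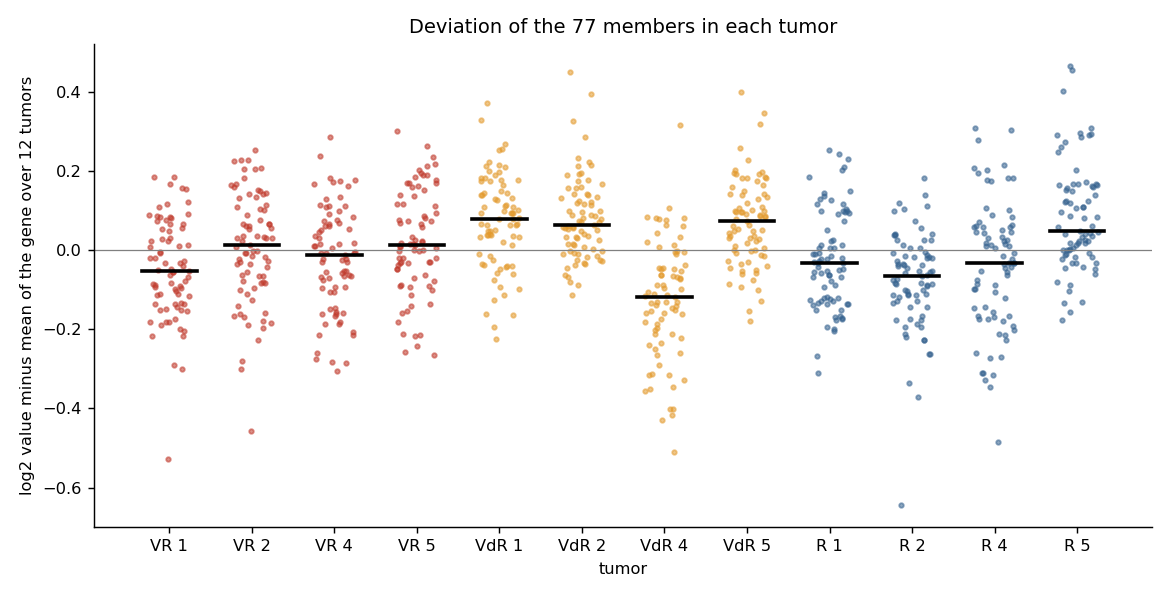
Each point is 1 of the 77 members in 1 tumor, as its log2 value minus the mean of that gene over the 12 tumors, and black bars are medians. The medians lay between -0.117 in VdR 4 and 0.080 in VdR 1, and VdR 4 is the one VdR tumor with its median below 0.

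The first comparison, VR against R tumors, asks how active Vnn1 together with its vector changed the members. Members moved in both directions, and their median lay close to that of all genes. Limma called 7 members higher and 7 lower at an adjusted p under 0.05 over 16573 genes, which is 9.09% of members in each direction where 13.6% of all genes were called higher and 7.48% lower. The median log2 difference was -0.005 over the members and -0.015 over all genes, with 37 members above 0 and 40 below. With each array centred on its median, the calls were 7 higher and 4 lower (1903 and 1056 of all genes). The differences were small, from -0.39 (Mrps27 and Mrps30) to 0.36 (Mrpl42), and the 95% interval of 76 members lay within 1.5-fold either way, as it did for 85.3% of all genes. Without VdR 4, which enters through the shared estimate of the spread, 14 members were higher and 8 lower (2332 and 1249 of all genes). Without R 1 the member counts were 3 and 3 (1730 and 875 of all genes). They were 4 and 5 without VR 2 (1795 and 817 of all genes) and 11 and 4 without R 5 (2306 and 1152). The lower count was 3 without R 4 (776 of all genes) and 4 without VR 1 (997) or VR 4 (875).

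Of 50 members counted to the large subunit (the Mrpl genes with Mrps30 and Mrps18a) 6 were higher and 4 lower, which is 12% and 8% where 13.6% and 7.48% of all genes were. Of the other 27 members, counted to the small subunit, 1 was higher and 3 were lower (3.7% and 11.1%). These 27 include Mrps36, which was not called and is known also as a subunit of the oxoglutarate dehydrogenase complex. The difference between the subunits was not tested. Of 48 members with a bacterial counterpart 4 were higher and 2 lower (8.33% and 4.17%). Of 29 without one 3 were higher and 5 lower (10.3% and 17.2%), and this split was not tested either.

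Mrpl23 and Mrpl24 encode proteins at the exit of the tunnel through which the new chain leaves the large subunit. Mrpl23 stood at 10.71, 10.82, 10.77 and 10.67 in VR 1, 2, 4 and 5, at 10.58, 10.69, 10.49 and 10.70 in VdR tumors and at 10.39, 10.58, 10.28 and 10.44 in R tumors. All VR tumors lay above all R tumors, with VdR tumors between and overlapping both (VR minus R 0.32, SE 0.0721, adjusted p = 0.00813). The other Mrpl23 probeset gave a nearly equal difference of 0.31. Mrpl24 stood at 9.497, 9.48, 9.42 and 9.38 in VR tumors, 9.24, 9.39, 9.27 and 9.36 in VdR tumors and 9.30, 9.10, 9.17 and 9.14 in R tumors. The groups again did not overlap between VR and R (0.27, SE 0.0583, adjusted p = 0.00681). Mrpl22, another protein of the tunnel exit, averaged 7.91 ± 0.15 in VR tumors and 7.91 ± 0.20 in R tumors (SD, n = 4 each), the smallest difference of all members (-0.001, SE 0.117).

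Mrpl33, the counterpart of a small bacterial large-subunit protein, stood at 7.87, 8.02, 7.98 and 7.90 in VR tumors, 7.86, 7.93, 7.68 and 7.85 in VdR tumors and 7.68, 7.71, 7.59 and 7.71 in R tumors. Every VR tumor was above every R tumor (0.27, SE 0.0631, adjusted p = 0.0101). Mrpl54, a mitochondrion-specific protein, stood at 9.60, 9.69, 9.66 and 9.62 in VR tumors, 9.55, 9.57, 9.22 and 9.60 in VdR tumors and 9.22, 9.31, 9.34 and 9.45 in R tumors. VR tumors were tightly grouped above R tumors (0.31, SE 0.0813, adjusted p = 0.0173), and VdR 4 fell among the R tumors. Mrpl3, whose human gene is mutated in a mitochondrial cardiomyopathy, averaged 10.41 ± 0.063 in VR tumors and 10.13 ± 0.112 in R tumors (SD, n = 4 each; difference 0.29, adjusted p = 0.0242). Mrpl42, a mitochondrion-specific protein, had the largest rise (0.36, SE 0.106, adjusted p = 0.0322), but its groups overlapped, with 7.93 to 8.24 in VR and 7.45 to 7.98 in R tumors.

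Mrps23 was the small-subunit member that rose. It stood at 10.21, 10.20, 10.22 and 10.11 in VR tumors, 10.24, 10.25, 10.06 and 10.32 in VdR tumors and 10.04, 9.86, 9.91 and 10.08 in R tumors. VR tumors lay just above R tumors (0.21, SE 0.0674, adjusted p = 0.0407).

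Of the 7 lower members, Mrps27 and Mrps30 differed most. Mrps27, a small-subunit protein with pentatricopeptide repeats, stood at 7.74, 7.73, 7.58 and 7.75 in VR tumors, 7.87, 7.95, 7.73 and 7.97 in VdR tumors and 7.99, 8.07, 7.95 and 8.35 in R tumors. VdR tumors overlapped both other groups, and VR and R tumors did not overlap (-0.39, SE 0.0867, adjusted p = 0.00773). Mrps30 of the large subunit stood at 7.80, 7.85, 7.76 and 7.98 in VR tumors, 7.75, 7.91, 7.83 and 7.88 in VdR tumors and 8.22, 8.003, 8.29 and 8.44 in R tumors. Here both VR and VdR tumors lay below every R tumor (VR minus R -0.39, SE 0.0848, adjusted p = 0.00686).

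Mrpl43, a large-subunit protein without bacterial counterpart, stood at 9.76, 9.57, 9.67 and 9.72 in VR tumors, 10.06, 9.84, 9.69 and 9.79 in VdR tumors and 9.96, 9.89, 10.15 and 10.12 in R tumors. VR tumors were below all R tumors (-0.35, SE 0.0853, adjusted p = 0.0117). Mrpl32, which in yeast and mouse must be cleaved by the m-AAA protease before it joins the large subunit, stood at 8.74, 8.69, 8.58 and 8.75 in VR tumors, 8.72, 8.71, 8.39 and 8.66 in VdR tumors and 9.002, 8.86, 8.97 and 8.91 in R tumors. As with Mrps30, R tumors stood above both others (VR minus R -0.24, SE 0.075, adjusted p = 0.0384).

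Mrpl38, a protein of the central protuberance of the large subunit, ranged from 9.49 to 9.67 in VR and from 9.63 to 10.07 in R tumors (-0.31, adjusted p = 0.0260). Mrps35 of the small subunit ranged from 8.36 to 8.54 in VR and from 8.58 to 8.83 in R tumors (-0.28, adjusted p = 0.0436), and Mrps5, described below with VdR tumors, fell by 0.19 (adjusted p = 0.0437). These last calls sat close to the threshold. Over 24 other ways of fitting the data, Mrps35 was called in 11 and Mrps5 in 9. Mrps23 was called in 13, Mrpl32 in 15, Mrpl42 in 16, Mrpl38 in 17 and Mrpl3 in 19. Mrpl23 and Mrpl33 kept the call in 23, and Mrpl24, Mrpl43, Mrpl54, Mrps27 and Mrps30 in 22. A minimum change of 1.5-fold, not among the 24, left no member called. With the macrophage marker mean as a covariate none of the 14 was called. Of all genes 59 were called in that fit, against 3500 without the covariate. R tumors did not overlap the others in that mean, so group and macrophage level can hardly be told apart.

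**Figure D2:**
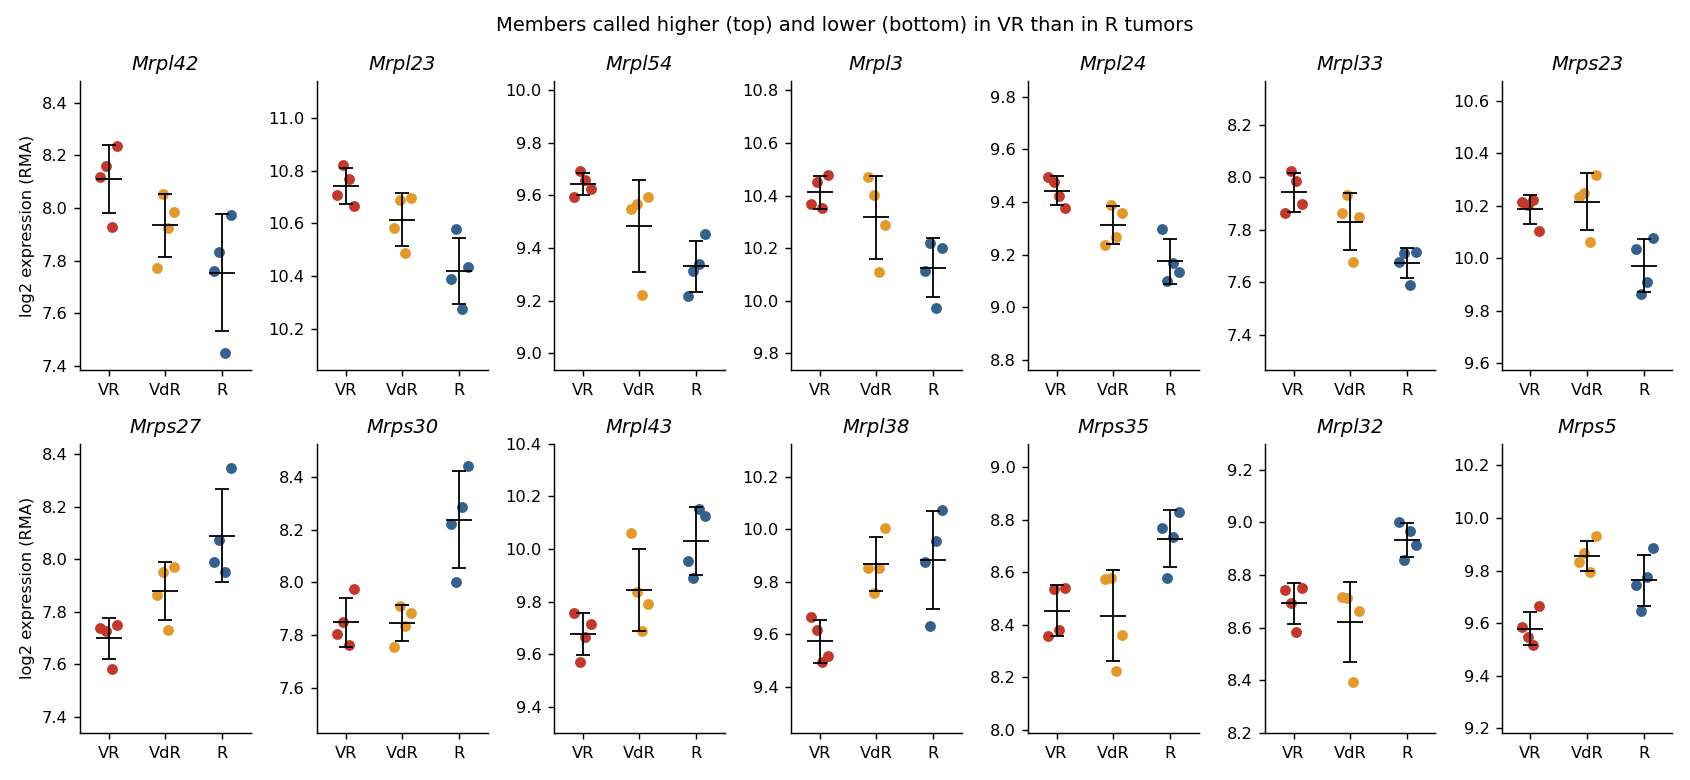
Points are log2 expression values of single tumors (red VR, orange VdR, blue R; 4 each) for the 7 members called higher and the 7 called lower in VR than in R tumors, with the group mean and SD in black. All panels span the same log2 range. Every VR tumor is above every R tumor for Mrpl23, Mrpl54, Mrpl3, Mrpl24, Mrpl33 and Mrps23.

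Without regard to the call, every VR tumor was above every R tumor for 10 members and below for 6, where this held for 15.3% and 10.5% of all genes. The members outside the 14 that did so were Mrpl12, Mrpl27, Mrps15 and Mrps17 above and Mrpl19 below, named here after their values were seen. Mrpl12, part of the stalk that recruits translation factors, differed by 0.29 (SE 0.119, adjusted p = 0.101). Mrps9 and Mrpl37 had, with Mrpl22, the smallest differences (-0.005, 95% interval -0.155 to 0.145, and -0.009, -0.131 to 0.113). The 3 paralogs Mrps18a, Mrps18b and Mrps18c, the first of the large and the others of the small subunit, were not called in any comparison, with VR minus R at 0.02, -0.19 and 0.11.

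**Figure D3:**
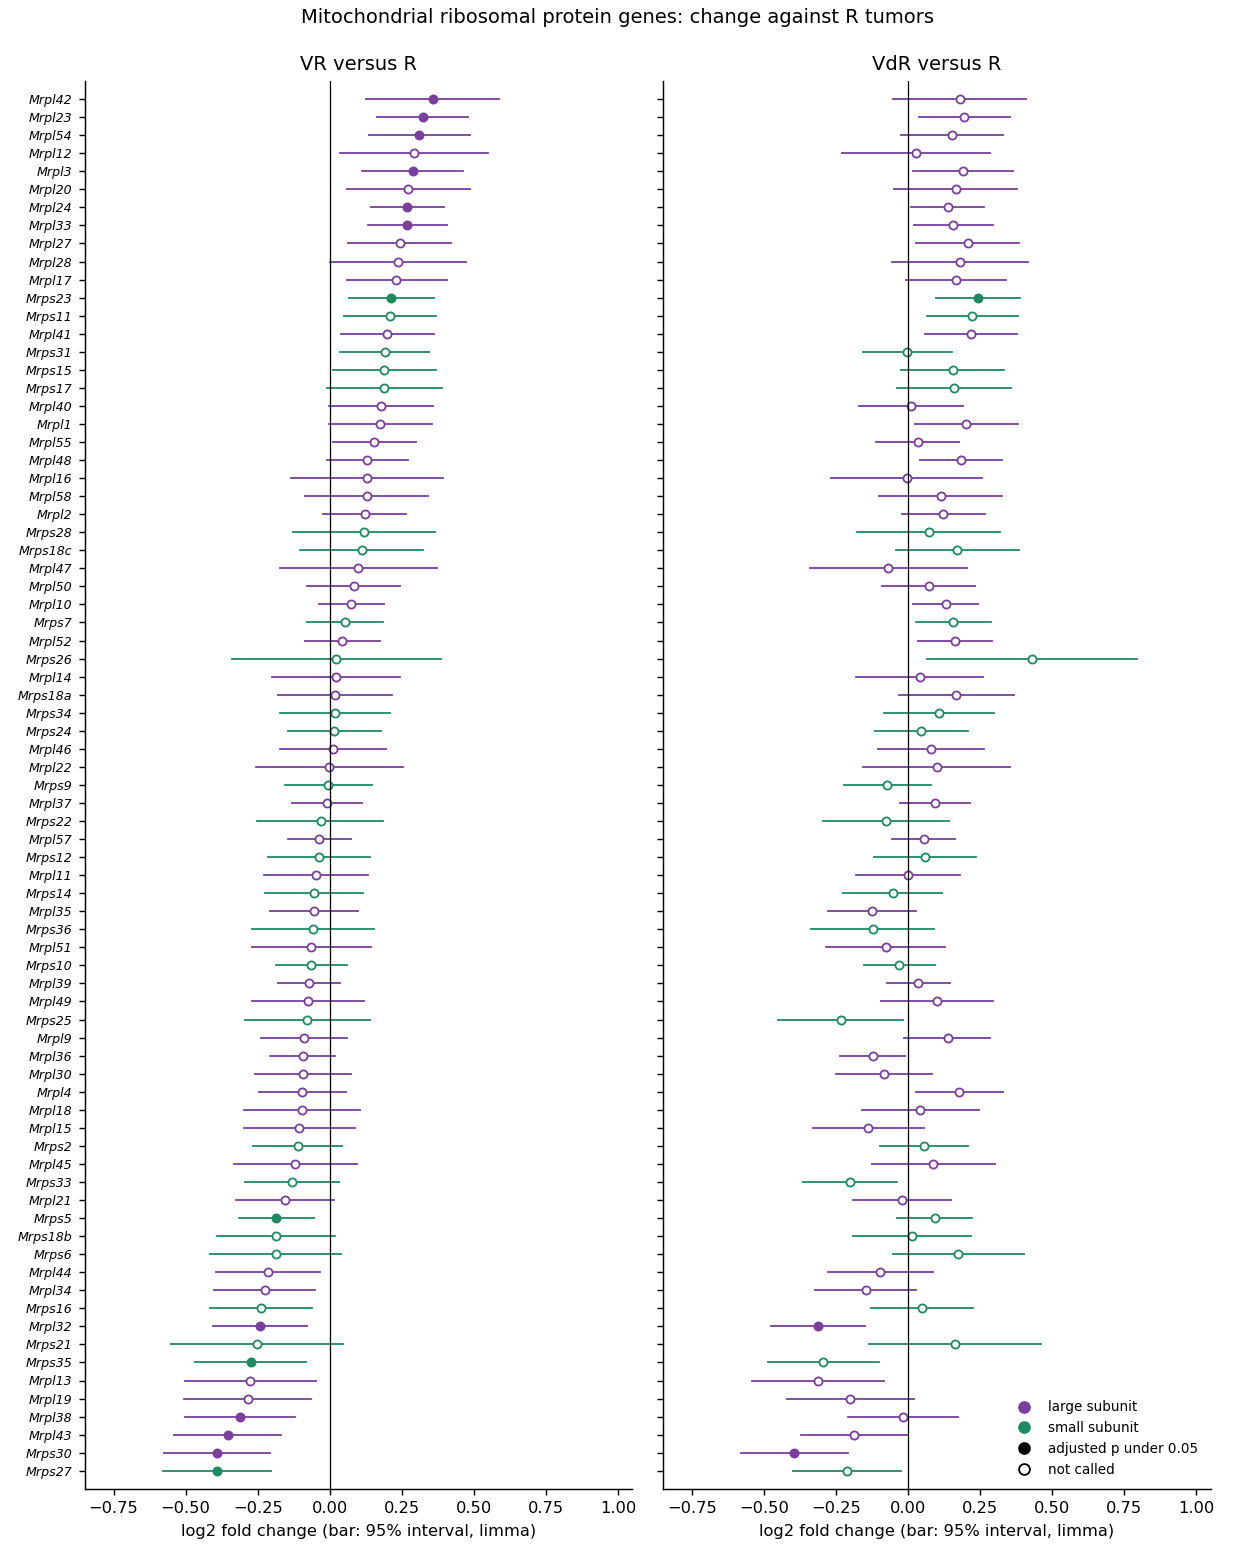
Points are log2 differences of the 77 members against R tumors, with bars for the 95% interval from limma, in VR (left) and VdR tumors (right), both ordered by the VR difference. Filled points passed an adjusted p of 0.05: 7 higher and 7 lower in VR, 1 higher and 2 lower in VdR tumors. Both panels share the same R tumors.

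VdR against R tumors compares the inactive Vnn1 form with the vector without Vnn1. Limma called 1 member higher (6.58% of all genes were) and 2 lower (2.81% of all genes). The member higher was Mrps23 (0.24, SE 0.0674, adjusted p = 0.0404), and those lower were Mrps30 (-0.39, SE 0.0848, adjusted p = 0.0119) and Mrpl32 (-0.31, SE 0.075, adjusted p = 0.0208). These 3 were also called, in the same direction, in VR against R tumors, a comparison that uses the same R tumors. For Mrps30 and Mrpl32 every VdR tumor lay below every R tumor, and for Mrpl10 and Mrps26 every one lay above, so 2 members stood on each side without overlap (9.73% and 4.5% of all genes stood above and below). Calls were 1 higher and 4 lower after cyclic loess (932 and 648 of all genes). They were 0 higher and 2 lower with each array centred on its median (810 and 443 of all genes). The median difference was 0.059 over members and 0.004 over all genes, and 51 members were above 0. For 76 members the 95% interval lay within 1.5-fold, against 88.9% of all genes.

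Without VdR 4 the median was 0.119 over the members and 0.008 over all genes. VdR 4 was the lowest of its group for 60 members, so leaving it out raises their VdR means by the choice itself. In that fit 6 of the 77 members were called higher and 2 lower, as were 973 and 386 of all 16573 genes. The 5 members added were Mrpl41, Mrpl48, Mrpl54, Mrps11 and Mrps15. For Mrps11, a protein of the small-subunit platform with a bacterial counterpart, VdR 1, 2, 4 and 5 stood at 8.26, 8.30, 8.07 and 8.33 and R tumors at 8.01, 7.98, 7.90 and 8.18, so that VdR 4 was the tumor within the range of R. Mrps30 and Mrpl32 kept their calls without it (-0.39, adjusted p = 0.0285, and -0.24, adjusted p = 0.0323), though that of Mrpl32 was lost without R 1 or R 4. Mrps23 was less steady: its VdR call was lost in 15 of 24 other fits, among them those without R 1, without R 4 and without VdR 1, 2 or 5. Without the 5 tumors with raised muscle markers, chosen after seeing the data, 4 members were higher and 1 lower (741 and 379 of all genes).

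The smallest VdR differences from R were those of Mrpl11 (0.000, 95% interval -0.180 to 0.181), Mrps31 (-0.003, -0.158 to 0.151) and Mrpl16 (-0.005, -0.267 to 0.258). The largest that did not pass was that of Mrps26, a small-subunit protein without bacterial counterpart, at 0.43 (SE 0.167, adjusted p = 0.140). Mrps26 stood at 8.71, 8.79, 8.45 and 8.52 in VdR tumors and 8.44, 7.70, 8.30 and 8.33 in R tumors. R 2 was the lowest of all 12 tumors, and the within-group spread of this gene (SD 0.27) was the widest of the members, whose median SD was 0.12 against 0.111 for all genes.

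VR against VdR tumors compares active with inactive Vnn1. Vnn1 RNA was also lower in VR tumors, and each group came from 1 line as far as is stated. Activity, level and line therefore cannot be told apart here. No member was called higher (1.77% of all genes were) and 1 was called lower (1.67% of all genes). An unadjusted p under 0.05 by limma was found for 12 of the 77 members and for 3182 of all 16573 genes. The gene-by-gene test that the methods give for qRT-PCR, with a Benjamini-Hochberg adjustment, called no member. It called only 30 of all 16573 genes, against 570 by limma, so it cannot decide whether members differed. The endothelial marker mean of every VR tumor was above that of every VdR tumor (median difference of the markers 0.53), and its part in the member values was not tested. The 95% interval lay within 1.5-fold for 74 members, against 91.0% of all genes. Of the 3 whose intervals reached further, Mrps26, Mrps21 and Mrps6, all had lower VR means (-0.41, -0.42 and -0.36) with adjusted p of 0.207, 0.116 and 0.0757.

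The lower member was Mrps5, a protein of the small subunit with a bacterial counterpart near the mRNA entry. Mrps5 stood at 9.58, 9.55, 9.52 and 9.66 in VR tumors, 9.83, 9.87, 9.79 and 9.93 in VdR tumors and 9.75, 9.65, 9.78 and 9.88 in R tumors. VR tumors lay below all VdR tumors (-0.28, SE 0.0594, adjusted p = 0.0309), and VdR and R tumors overlapped (VdR minus R 0.09, adjusted p = 0.397). Its second probeset showed a smaller difference (-0.16), and the call was lost in 10 of 24 other fits, among them the one with both probesets averaged and those without VdR 1, 2, 4 or 5 or VR 2 or 4.

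Without regard to the call, every VR tumor was below every VdR tumor for 7 members and above for 1, where this held for 6.77% and 5.88% of all genes. The 7 were Mrpl4, Mrpl9, Mrpl38, Mrps2, Mrps5, Mrps6 and Mrps16, and the 1 above was Mrps31. Mrpl38 differed by -0.29 (adjusted p = 0.0882) and Mrpl4 by -0.27 (adjusted p = 0.0515). In contrast, Mrps30 averaged 7.85 ± 0.093 in VR and 7.85 ± 0.069 in VdR tumors (SD, n = 4 each), with a difference of 0.003. Mrpl2 and Mrps14 were as close (-0.001, 95% interval -0.146 to 0.143, and -0.002, -0.173 to 0.169).

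The genes that serve the mitochondrial ribosome were examined next to its proteins, in lists written from textbook knowledge. Proteins of the ribosome whose names fall outside the rule, Dap3, Ptcd3 and Chchd1 of the small and Gadd45gip1 of the large subunit, were not called in any comparison, with VR minus R between -0.16 and 0.03. Of 21 assembly genes, 2 rose in VR against R tumors (9.52%, where 13.6% of all genes did) and none fell (7.48% of all genes). They were Tfb1m, which methylates the small ribosomal RNA (8.31 ± 0.141 in VR and 7.82 ± 0.196 in R tumors, SD, n = 4 each; adjusted p = 0.0196), and Rbfa, a maturation factor of the small subunit (0.23, adjusted p = 0.0297). In VdR against R tumors, Malsu1, which keeps the subunits apart during assembly of the large one, was lower (-0.30, adjusted p = 0.0132). That is 4.76% of the list, where 2.81% of all genes were lower.

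Of 11 translation factors, Mtif2, the initiation factor, and Mtfmt, which formylates the initiator methionine, rose in VR against R tumors (0.34 and 0.25, adjusted p = 0.0366 and 0.0120). Oxa1l, which inserts new chains into the inner membrane, was lower in VR tumors than in R (-0.24, adjusted p = 0.0240) and VdR tumors (-0.33, adjusted p = 0.0266). In VR against R tumors 18.2% of these factors were higher and 9.09% lower, where 13.6% and 7.48% of all genes were. In VR against VdR tumors 9.09% were lower, where 1.67% of all genes were. Of 16 mitochondrial tRNA synthetases, 4 rose in VR against R tumors (25%, where 13.6% of all genes did) and none fell (7.48% of all genes). They charge tRNAs with leucine (Lars2, 0.25), tryptophan (Wars2, 0.31), arginine (Rars2, 0.38) and histidine (Hars2, 0.25), with adjusted p of 0.00822, 0.00668, 0.0267 and 0.0472. Lars2 was also higher in VdR than in R tumors (0.21, adjusted p = 0.0390). Of the synthetases 6.25% were called higher there, where 6.58% of all genes were. Of 15 genes for the upkeep and expression of mitochondrial DNA, Slirp, which stabilises mitochondrial mRNAs, was higher (0.34, adjusted p = 0.0227) and Twnk, the DNA helicase, lower (-0.25, adjusted p = 0.0364) in VR than in R tumors. Each is 6.67% of that list, where 13.6% of all genes were higher and 7.48% lower.

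Of 11 regulators of mitochondrial genes, none rose (13.6% of all genes did) and 2 fell in VR against R tumors (18.2%, where 7.48% of all genes did). Nrf1 averaged 8.30 ± 0.052 in VR and 8.50 ± 0.103 in R tumors (SD, n = 4 each, limma adjusted p = 0.0420). The coactivator Ppargc1a differed by -0.24 (adjusted p = 0.0312), but its signal lay near the filter value of 5.38. It averaged 5.38 in VR, 5.475 in VdR and 5.62 in R tumors, so this difference is one between values near the floor. Gabpa, Yy1 and Myc were not called (0.05, -0.11 and -0.12). Among 21 genes for import, porins and quality control of mitochondria, none rose and 5 fell in VR against R tumors: Vdac2, a channel of the outer membrane (-0.37), Tomm20 and Tomm22, import receptors (-0.27 and -0.22), Phb2, a scaffold of the inner membrane (-0.23), and Timm50, an inner membrane import receptor (-0.19). Tomm22 and Timm50 were lower than in VdR tumors too (-0.24 and -0.28), as was the protease subunit Clpp (-0.24). In VR against R tumors 23.8% of this list fell, where 7.48% of all genes did and 13.6% rose. Against VdR tumors 14.3% were lower, where 1.67% of all genes were.

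Of 81 genes for subunits of the respiratory chain and of ATP synthase, 7 were higher and 1 lower in VR against R tumors. That is 8.64% and 1.23%, where 13.6% and 7.48% of all genes were. In VdR against R tumors 8 were higher and none lower, 9.88% where 6.58% of all genes were higher. Of the genes higher in VR tumors, Uqcr11 belongs to complex III, Atp5o to ATP synthase and the rest to complex I, with Ndufc1 (0.37, adjusted p = 0.00279) and Ndufa1 (0.33, adjusted p = 0.00327) those with the lowest p, and both were higher in VdR tumors as well (0.26 and 0.27). Uqcrfs1, the iron-sulfur subunit of complex III, was lower in VR tumors (-0.37, adjusted p = 0.00915). Of 63 genes with symbols of cytosolic ribosomal proteins, none rose, and Rpl13 (-0.31, adjusted p = 0.00702) and Rpl10l (-0.24, adjusted p = 0.0442) fell in VR against R tumors, with a median of 0.000. Of those 63 genes 3.17% fell, where 7.48% of all genes did and 13.6% rose. Those 63 include Rps19bp1, which is not a ribosomal protein, and a few pseudogenes. Of 26 nucleolar genes, Nop2, Utp15 and Gnl3 fell in VR against R tumors (11.5%, where 7.48% of all genes did), and of 14 proliferation genes none was called.

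**Figure D4:**
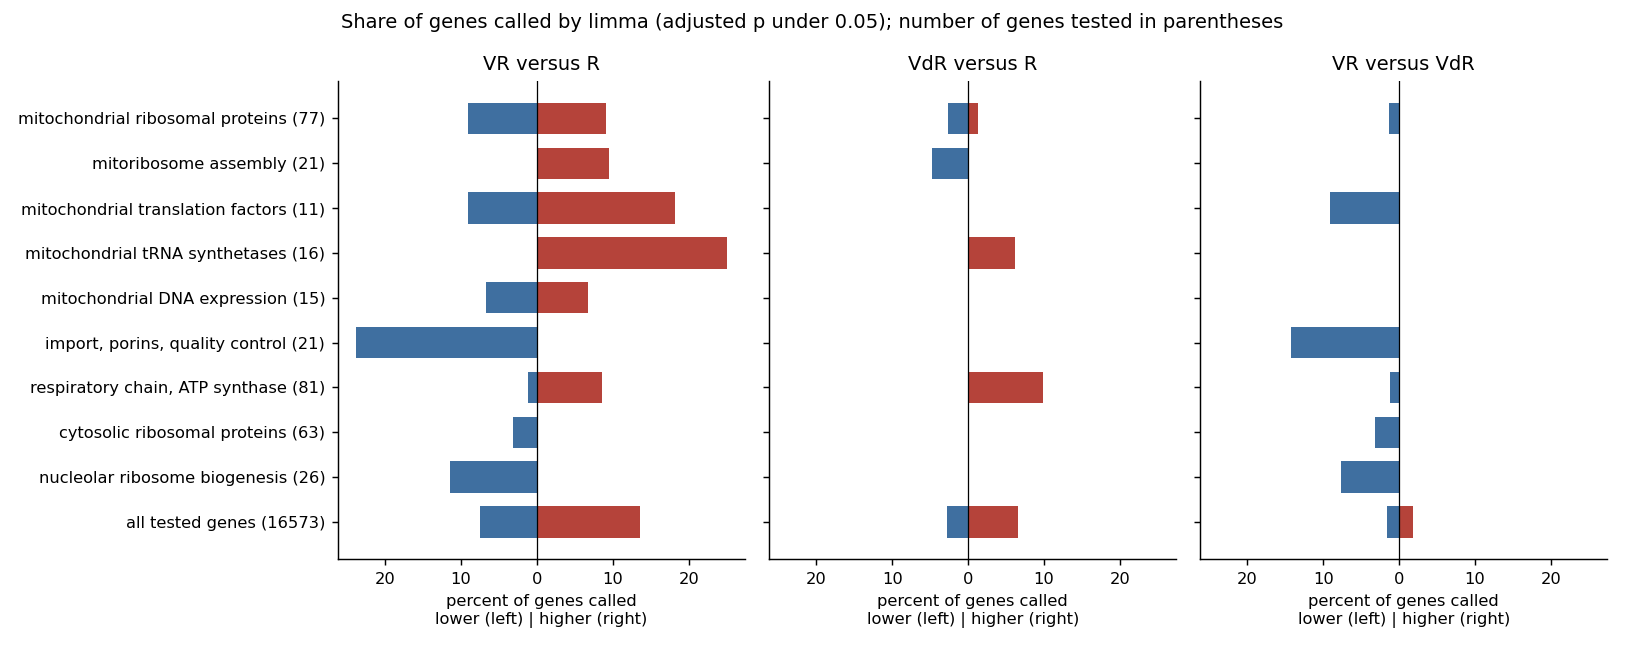
Bars give the percent of genes of each list that limma called lower (blue, to the left) and higher (red, to the right) in each comparison, with the number tested in parentheses. In VR against R tumors 9.09% of the mitochondrial ribosomal protein genes were called in each direction, against 13.6% higher and 7.48% lower of all genes. The lists were chosen with earlier results of these data known, and no difference between lists was tested.

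Of the 77 members, 8 had a second probeset with 1 symbol. The 2 probesets moved in the same direction in every comparison for all but Mrpl47 and Mrpl51. For Mrpl47 the one used gave 0.10 and the other -0.22 for VR minus R, and for Mrpl51 they gave 0.01 and -0.01 for VR minus VdR. Which probeset reads the gene and which may also read a near-identical copy is not stated in the annotation, so the values of these 8 genes, Mrpl23 and Mrps5 among them, carry that uncertainty.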

How the data were processed

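Microarray values of 12 tumors were used, grouped by the sample labels. The authors hybridised RNA to Affymetrix mouse gene 1.0 ST arrays and normalized all arrays with RMA in oligo, for which the submitters' processing notes give no version. Per probeset the authors deposited a log2 expression value, and RMA's common distribution of values may hide an overall change in RNA content. No scan date or batch was given in the sources used here, and the number of arrays limits the precision. Of 35556 probesets, 21789 had 1 gene symbol, 1621 several and 12146 none; only the first were named, with the highest-mean probeset per gene. A gene was tested if 4 or more arrays exceeded 5.38, the 25th percentile of the table, which 16573 did. Groups were compared with limma 3.58.1 (lmFit and eBayes, R 4.3.3) on 12 arrays, fitting a mean for each group, with a Benjamini-Hochberg adjustment over those genes and a threshold of 0.05; the script was tested on simulated data. Named were the called members, the 3 smallest changes per comparison, the 3 paralogs, members with the highest and lowest signal, members with discordant probesets, and up to 4 genes with the lowest p per list, with further list genes that were called. The 6 members with the highest or lowest signal (Mrpl10, Mrpl40, Mrps6, Mrps12, Mrpl44 and Mrps36) were not called in any comparison. The members and lists were chosen with earlier results of these data known.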

Additional observations from a re-analysis of the deposited data

Results flagged for a closer look

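Among 102 groups of 4 tumors examined, each a named member or the member mean in 1 group, 7 had 1 tumor set apart from the others by a gap, as a share of the group's range, above Dixon's critical value. Chance alone marks about 1 group in 20. In VdR tumors the set-apart tumor was VdR 4 each time: the member mean was 9.09 there against 9.29 to 9.30 in the others, Mrpl32 was 8.39 against 8.66 to 8.72, and Mrpl54 was 9.22 against 9.55 to 9.60. In VR tumors it was VR 4, with Mrpl11 at 10.00 against 10.04 to 10.05, Mrpl47 at 7.28 against 7.61 to 7.67, and Mrps27 at 7.58 against 7.73 to 7.75. In R tumors it was R 5, with Mrpl37 at 10.03 against 9.87 to 9.88.

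Mrps5 differed between the 2 changes against R tumors: VR minus R was -0.19 and VdR minus R was 0.09, and the difference between them, which is VR minus VdR, was -0.28 (adjusted p = 0.0309 by limma, lower in 4 of 4 VR tumors than in any VdR tumor).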

How the results depend on the processing

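In VR against R tumors (7 members higher, 7 lower), other settings gave 16 and 14 with array weights and 8 and 11 with cyclic loess. They gave 7 and 4 with arrays centred on the median and 5 and 3 with the methods' t-test after Benjamini-Hochberg. Both with a minimum change of 1.5-fold and with the macrophage score as covariate they gave 0 and 0. Of all genes, 2261 were higher and 1239 lower in the main fit. These counts were 3346 and 2321 with array weights, 2261 and 1383 with cyclic loess, and 1903 and 1056 centred. They were 1448 and 672 with the t-test, 729 and 238 with the 1.5-fold minimum, and 6 and 53 with the macrophage score. In VdR against R tumors (1 member higher, 2 lower) the counts were 10 and 3 with array weights and 1 and 4 with cyclic loess. They were 0 and 2 centred or with only the groups compared, and 0 and 0 with the 1.5-fold minimum, the t-test or the macrophage score. Of all genes 1090 and 465 were called in the main fit, 1757 and 838 with array weights and 932 and 648 with cyclic loess. The counts over all genes were 810 and 443 centred, 885 and 318 with only the groups compared, and 378 and 118 with the 1.5-fold minimum. The t-test called 391 and 102, and the fit with the macrophage score 3 and 29. Without the 5 tumors with muscle markers, added after seeing the data, 4 members were higher and 1 lower there (741 and 379 of all genes). In VR against VdR tumors (0 members higher, 1 lower) the lower count was 4 with array weights and 2 with the stricter filter or only the groups compared. It was 0 with probesets averaged, arrays centred, the 1.5-fold minimum, the t-test or the muscle tumors left out. Of all genes 277 were lower in the main fit, 429 with array weights, 334 with the stricter filter and 266 with only the groups compared. That count was 279 with probesets averaged, 152 centred, 43 with the 1.5-fold minimum, 18 with the t-test and 2 without the muscle tumors.

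Leaving out 1 tumor gave 3 to 14 higher and 3 to 9 lower members in VR against R tumors, 0 to 6 and 1 to 4 in VdR against R tumors, and 0 to 0 and 0 to 3 in VR against VdR tumors. In VR against R tumors the lower member count was 3 without R 1 (875 of all genes) or R 4 (776). It was 4 without R 5 (1152 of all genes), VR 1 (997) or VR 4 (875). In VdR against R tumors, the higher count was 0 without R 1, R 4, VdR 1, VdR 2, VdR 5, VR 1, VR 2 or VR 4, 2 without R 5 and 6 without VdR 4, and the lower count was 1 without R 1 or R 4 and 4 without R 2. In VR against VdR tumors the lower count was 0 without VdR 1, VdR 2, VdR 5, VR 2 or VR 4, 2 without R 4 or R 5 and 3 without R 2, and without VdR 4 it was 1, with Mrpl45 in place of Mrps5.

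With the macrophage score as covariate, Mrpl32 (0.12, adjusted p = 0.887), Mrpl42 (-0.25, 0.802) and Mrpl43 (0.069, 0.942) changed direction in VR against R tumors and Mrpl32 (0.091, 0.922) in VdR against R tumors, and the medians of all genes were 0.11 and 0.125. That fit called 59 of all genes for VR and 32 for VdR against R tumors, where the main fit called 3500 and 1555. The score of R tumors did not overlap that of the others. Of 432 refits of the 18 called values, the 1.5-fold minimum not counted, 320 kept the call, 108 lost it and 4 changed direction.

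Same-numbered tumors correlated at -0.151 to 0.398 in their deviations from the group means, so the numbers are taken as shared numbers only. With the tumor number as a replicate block, 9 members were higher and 8 lower in VR against R tumors (2421 and 1506 of all genes). The counts were 0 and 2 in VdR against R (1121 and 533 of all genes) and 0 and 2 in VR against VdR tumors (304 and 317).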
